A study of Mus musculus with 20 samples.

Results

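The oligodendrocyte lineage and myelin genes are 34 genes that mark the cells making the myelin of the central nervous system, from their progenitors to the mature myelinating cell. They were chosen by symbol, and all 34 were found among the 23412 symbols of each tissue's table. They comprise 12 genes of myelin structure, 4 of lipid enzymes, 4 of transcription factors, 5 of metabolism, 4 of signalling and 5 of progenitors and early oligodendrocytes. RNA of hippocampus and amygdala from mice at postnatal day 21 was sequenced in 20 libraries, to compare mice whose neurons were made to lose the corepressor NCoR1 or the corepressor SMRT with controls. In each tissue there were 3 NCoR1-KO libraries (pan-neuronal Snap25-IRES2-cre with floxed Ncor1), 3 SMRT-KO libraries (the same Cre with floxed SMRT) and 4 control libraries. The labels do not say whether controls carry the Cre or a floxed allele, and they do not say whether libraries are separate animals, so a p-value here measures only how these samples spread, and part of that may be technical. The Cre driver is neuronal, and oligodendrocytes, the main source of most of the 34 genes, are not the cells in which the alleles are meant to be deleted. Some of the 34, such as Car2 and Sirt2, are also expressed in other cells.

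Oligodendrocytes arise from dividing progenitors that carry the PDGF receptor and the NG2 proteoglycan, pass through a premyelinating stage and then wrap axons in layers of membrane. That membrane is unusually rich in galactolipids and in a few abundant proteins that compact it, and the genes for these products rise steeply as the cell matures. In the rodent forebrain the third postnatal week is a time of active myelination, and thyroid hormone, whose receptors recruit NCoR1 and SMRT, is a known driver of oligodendrocyte maturation.

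Levels are in TPM, a unit that corrects for the length of a transcript and sets every library to the same sum, so the sequencing depth is not known from it. Of a library's TPM the 34 genes together made up between 0.986% and 1.76% in the 4 hippocampus controls, between 1.21% and 1.496% in the NCoR1-KO group and between 0.913% and 2.52% in the SMRT-KO group. For amygdala these shares were 0.310% to 0.886%, 0.412% to 0.536% and 0.757% to 1.12%. Ncor1 itself stood at 41.9 to 61.1 TPM in hippocampus NCoR1-KO against 81.6 to 137 TPM in controls, and at 32.1 to 39.0 against 71.3 to 127 TPM in amygdala. Snap25, whose locus carries the Cre, ranged from 1825 to 2329 TPM in the 8 control libraries of both tissues and from 1053 to 1699 TPM in the 12 knockout libraries, without overlap, and the part of the Cre allele in the differences from control was not tested. The libraries spread widely in the 34 genes. In hippocampus, SMRT-KO 2 was the highest of the 10 libraries for all 34 genes and SMRT-KO 3 the lowest for 28. In amygdala, SMRT-KO 2 was the highest for 28 genes and control 2 the lowest for 28. Differences are given on the log2(TPM + 1) scale with the standard error (SE) of limma's fit, and a gene passed when its Benjamini-Hochberg adjusted p over all genes tested was under 0.05.

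All 34 genes lie at annotated loci (GENCODE M21 on GRCm38) on 14 chromosomes. Among those the results turn on, Ugt8a spans chr3:125865271-125938619 (minus strand), Ermn chr2:58045113-58052864 (minus strand), Tspan2 chr3:102734529-102801513 (plus strand), Aspa chr11:73304992-73329596 (minus strand), Car2 chr3:14886273-14900770 (plus strand) and Pdgfra chr5:75152292-75198215 (plus strand). Mobp, Trf and Evi2a overlap another gene on the same strand and their values are uncertain. Of the 34, 14 overlap a gene on the opposite strand, Tspan2, Ermn and Evi2a among them, whose reads can be told apart only if the counting used the strand. RefSeq promoters (GRCm38.p6) of 250 bases before to 50 after a start were found for 24 of the 34 genes, 34 promoters in all. They were searched on both strands for AGGTCA, the hexamer of many nuclear receptor elements, for ACAAAG, a core that SOX proteins bind, and for CAGCTG, an E-box. Copies of different motifs did not overlap, but promoters of 1 gene can, and the Mag promoters that hold ACAAAG share the same copy. AGGTCA stood in 1 of the 34 promoters (2.94%), of the connexin gene Gjb1, against 16.3% of all 32851 promoters of that length. ACAAAG stood in 9 promoters (26.5%) of 6 genes, Cnp, Gjb1, Lpar1, Mag, Mobp and Tspan2, against 18.7% of all. CAGCTG stood in 1, of Aspa, against 16.3%. A match is a description of letters and not a bound site. Printed here 5′ to 3′ on the gene's strand are the 250 bases before 5 starts where no exon is annotated. They are Ugt8a (chr3:125938653-125938902, minus strand), Ermn (chr2:58052865-58053114, minus) and Aspa (chr11:73324638-73324887, minus), which differed between the knockouts in amygdala, Mag (chr7:30914923-30915172, minus) for a SOX core beside a myelin gene, and Pdgfra (chr5:75152001-75152250, plus), the progenitor gene that was higher in amygdala. The start of Aspa used here lies inside the gene's GENCODE span. Capitals mark CAGCTG in Aspa at 110 bases before the start and, in Mag at 67 bases before it, CTTTGT, which is ACAAAG on the other strand.
Ugt8a: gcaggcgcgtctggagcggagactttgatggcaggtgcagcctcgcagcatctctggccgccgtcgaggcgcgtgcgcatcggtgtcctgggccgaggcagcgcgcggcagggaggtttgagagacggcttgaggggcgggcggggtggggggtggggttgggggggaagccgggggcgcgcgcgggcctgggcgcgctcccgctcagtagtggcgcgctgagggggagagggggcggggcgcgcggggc
Ermn: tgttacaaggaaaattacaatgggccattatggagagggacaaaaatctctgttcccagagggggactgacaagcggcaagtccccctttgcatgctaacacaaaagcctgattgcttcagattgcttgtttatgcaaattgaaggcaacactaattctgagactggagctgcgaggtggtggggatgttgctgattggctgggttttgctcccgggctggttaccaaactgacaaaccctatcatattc
Aspa: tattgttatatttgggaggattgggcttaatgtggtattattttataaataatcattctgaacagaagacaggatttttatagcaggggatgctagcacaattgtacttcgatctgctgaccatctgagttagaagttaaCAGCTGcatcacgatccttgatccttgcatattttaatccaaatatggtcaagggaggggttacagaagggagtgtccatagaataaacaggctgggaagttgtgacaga
Mag: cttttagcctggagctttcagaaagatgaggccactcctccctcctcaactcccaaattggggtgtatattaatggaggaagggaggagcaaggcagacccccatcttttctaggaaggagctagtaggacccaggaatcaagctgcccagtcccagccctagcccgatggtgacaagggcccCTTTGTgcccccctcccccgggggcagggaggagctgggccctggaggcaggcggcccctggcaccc
Pdgfra: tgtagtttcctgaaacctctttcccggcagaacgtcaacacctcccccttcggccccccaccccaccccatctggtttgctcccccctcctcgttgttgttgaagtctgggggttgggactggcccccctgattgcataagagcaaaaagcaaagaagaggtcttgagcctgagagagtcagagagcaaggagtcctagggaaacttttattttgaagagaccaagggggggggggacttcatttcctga

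Most of the 34 genes moved together from library to library within a group, in a spread wider than that of other genes. The standard deviation of log2 values within a group had a median of 0.43 over the 34, against 0.13 over 14210 genes, from 0.12 for Cspg4 to 0.60 for Mog. The ratio of the highest to the lowest library in a tissue had a median of 2.62 in hippocampus and 3.45 in amygdala, and reached 4.08 and 6.28. With each value taken as its deviation from its group's mean, a gene's Pearson correlation with the median of the other 33 over the 20 libraries had a median of 0.97 (Spearman 0.95) and was over 0.9 for 27 genes. Without the 2 libraries farthest from the median, hippocampus SMRT-KO 2 and SMRT-KO 3, the median was 0.96 and 26 genes were over 0.9. All 12 myelin structure genes and all 4 lipid enzymes were over 0.9 with all libraries. The genes that followed least were the progenitor genes Cspg4 (0.21) and Pdgfra (0.62), then Car2 and Gpr17 (0.81 each), Ndrg1 (0.84) and Qdpr (0.87). Without hippocampus SMRT-KO 2 and SMRT-KO 3 they stood at -0.21, 0.28, 0.69, 0.64, 0.75 and 0.79 in the same order. These correlations share libraries and TPM scaling and carry no test. Mbp, the basic protein that compacts myelin and the most abundant of the 34, made up 38.7% to 54.2% of their summed TPM. Its ratio to Cnp, a phosphodiesterase of the same sheath, stayed between 6.11 and 8.77 over the 20 libraries. Its ratio to Pdgfra ran from 107 to 178 in the controls of hippocampus, from 141 to 196 in its NCoR1-KO libraries and from 129 to 252 in its SMRT-KO libraries. In amygdala the ratio ran from 21.4 to 71.6, from 34.0 to 59.2 and from 67.6 to 113 in the same groups.

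**Figure D1:**
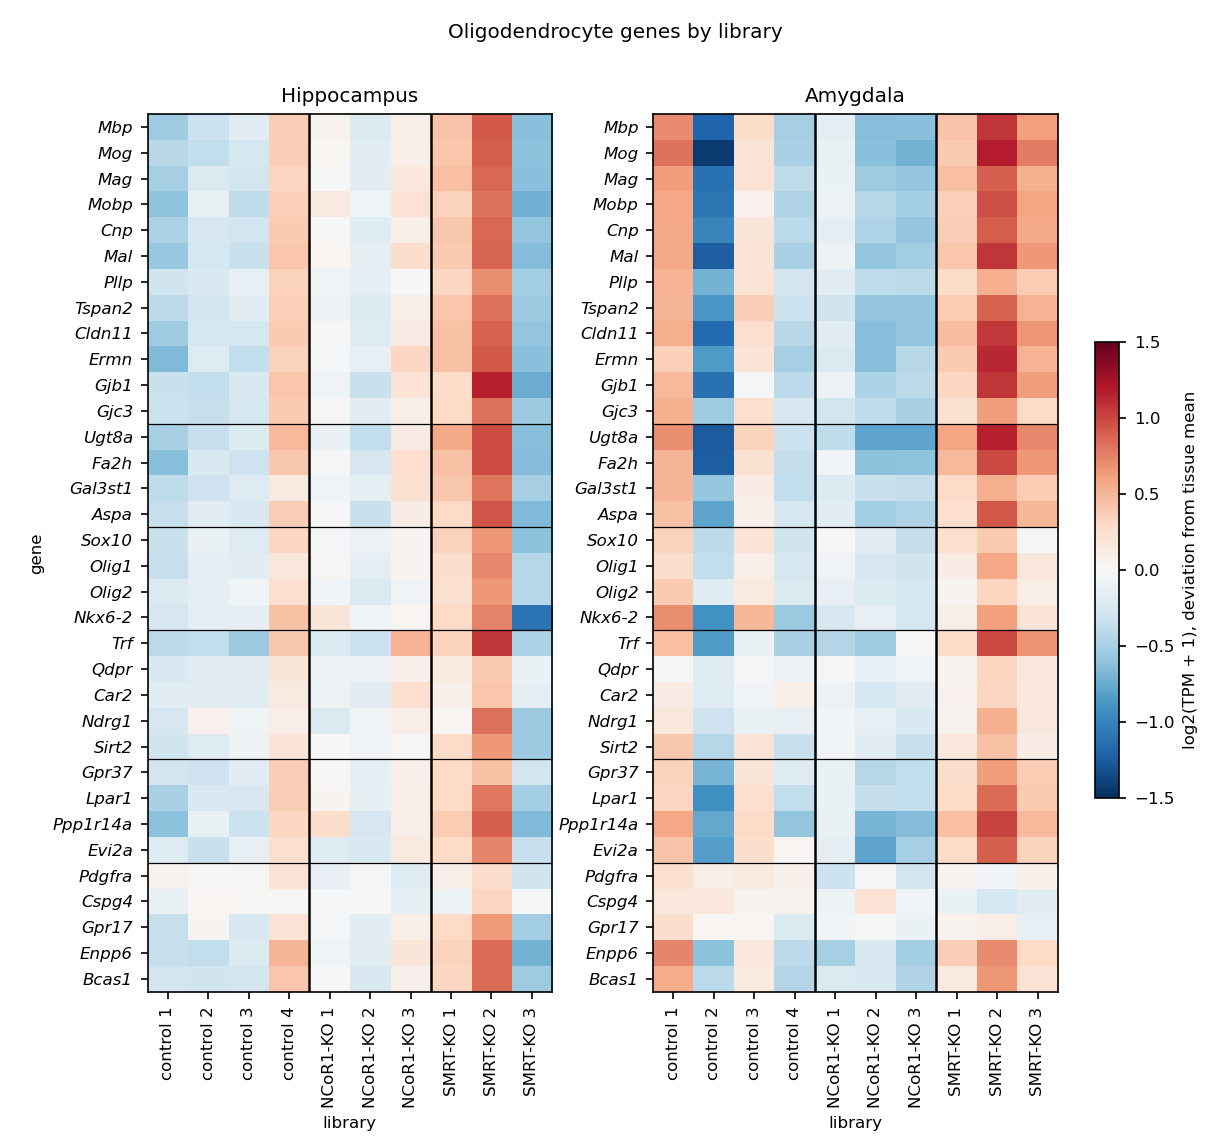
Log2 deviation of each of the 34 genes (rows, by role) from its mean over the tissue in each of the 10 hippocampus and 10 amygdala libraries (columns); colour gives the deviation. Hippocampus SMRT-KO 2 is high and SMRT-KO 3 low for nearly all rows, amygdala control 2 is low, and Pdgfra and Cspg4 vary little.

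The 4 control libraries of each tissue show how the 34 genes differ between the regions without a knockout. In amygdala 28 of the 34 were lower than in hippocampus and 1, Pdgfra, was higher at limma's adjusted p under 0.05, 29 in all, where 32.5% of all genes passed and 13.2% passed as lower. The median log2 difference was -0.98 over the 34 and 0.03 over all genes tested. At an unadjusted p under 0.05 there were 31 (42.6% of all genes), 30 of them lower. Every amygdala control lay below every hippocampus control for 25 genes, against 13.6% of all genes, and above for 2, Pdgfra and Cspg4. The tissues come from separate tables in which each library is scaled to its own total, so these are levels relative to the other RNA of each region. The labels do not say whether both tissues came from the same animals, and the libraries were fitted as unpaired; 29 genes also passed with genotype and replicate number as a block. In bulk tissue fewer cells of a type and less RNA per cell cannot be told apart.

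**Figure D2:**
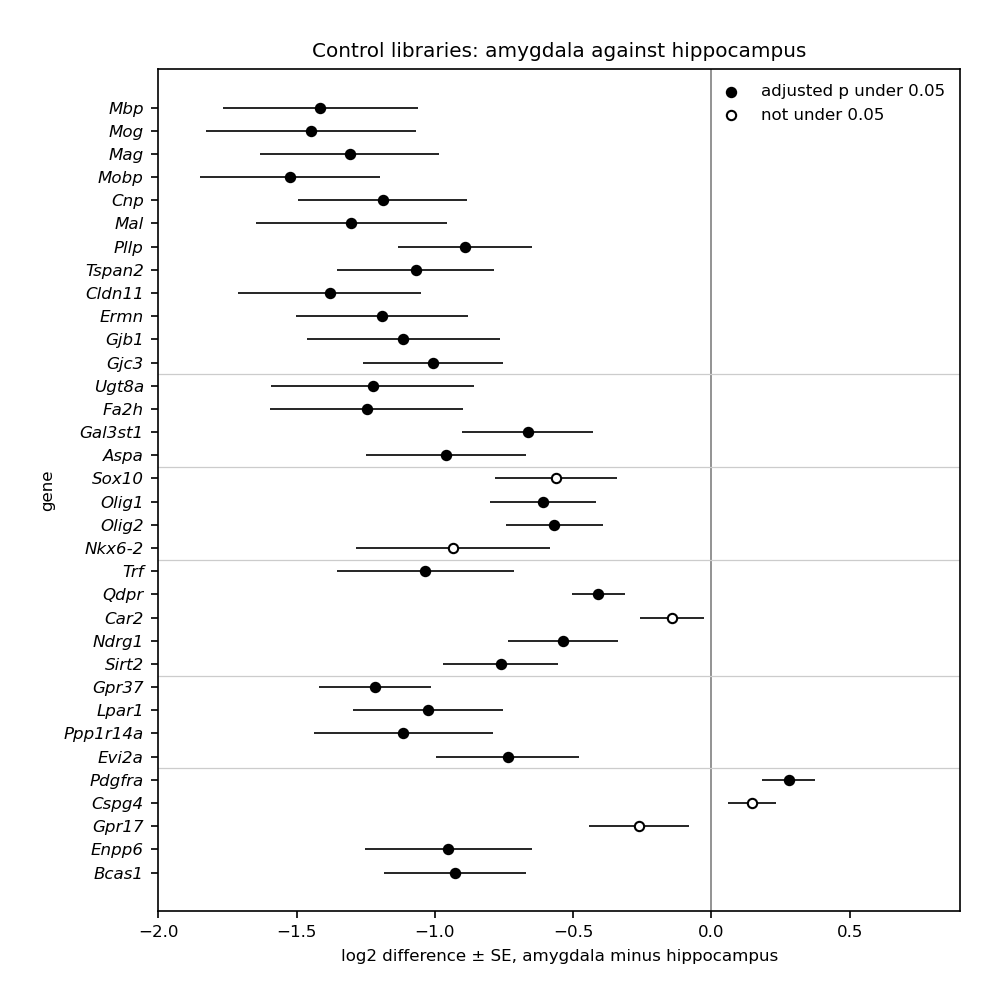
Log2 difference of amygdala from hippocampus controls for each of the 34 genes with its standard error, grouped by role; filled points passed limma's adjusted p of 0.05. Myelin structure genes sit between -1.52 and -0.89, and the progenitor genes Pdgfra and Cspg4 lie above 0.

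All 12 genes of myelin structure fell in amygdala relative to hippocampus, and none of their control libraries overlapped between the tissues. Mbp stood at 5010.2, 5775, 6399.8 and 9336 TPM in hippocampus controls 1 to 4 and at 4458, 1200.5, 3309 and 1929 TPM in amygdala controls 1 to 4. The hippocampus mean was 2.43 times the amygdala mean (6630.0 ± 1891 against 2724 ± 1449 TPM, SD, n = 4 each), with a log2 difference of -1.41 ± 0.35 (limma adjusted p = 0.00501). Amygdala control 2 was the lowest and control 1 the highest of the amygdala values, and hippocampus control 4 was the highest of all. Mobp, a second basic protein of the cytoplasmic face, had the widest gap of the 34, from 388, 548, 453 and 758 TPM to 316, 98.2, 220.3 and 154 TPM, a difference of -1.52 ± 0.33 (adjusted p = 0.0016, limma). Mog, the glycoprotein of the outer myelin surface, went from 191, 196, 212 and 330.5 TPM to 171, 35.05, 111 and 68.8 TPM (-1.45 ± 0.38, adjusted p = 0.00716). For both genes control 2 was the lowest amygdala library. Tspan2, a tetraspanin of the myelin membrane, stood at 248, 265, 289 and 416 TPM and 213, 81, 193 and 120.0 TPM. Ermn, a cytoskeletal protein of late oligodendrocytes, stood at 44.02, 61.1, 53.9 and 89.2 TPM and 38.1, 16.01, 34.4 and 20.6 TPM. Their differences were -1.07 ± 0.29 and -1.19 ± 0.31, the same in direction as for the more abundant sheath proteins.

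The other 7 myelin genes fell by similar amounts. Mag, the adhesion protein that faces the axon, was at 333, 404, 387 and 587 TPM in hippocampus controls and 292, 86.2, 219 and 145 TPM in amygdala controls. Cnp was at 641, 742, 729.8 and 1169.7 TPM and 579.8, 197, 443 and 295 TPM. Cldn11, which forms the tight junctions between myelin layers, was at 439, 529.9, 527 and 835 TPM and 364, 110.2, 295 and 186 TPM. In each of the 3 the log2 difference lay between -1.38 and -1.19, and every hippocampus library was above every amygdala library. Mal, a proteolipid of membrane sorting, was at 393, 488, 464 and 779 TPM and 364, 103, 279.8 and 175 TPM. Pllp, plasmolipin, was at 88.6, 93.7, 100.3 and 139 TPM and 84, 35.1, 67.2 and 47.7 TPM, the smallest gap of the 12 (-0.89 ± 0.24). Amygdala control 1 came close to the lowest hippocampus library for both. The connexin genes Gjb1 and Gjc3 fell too. Gjb1, the least abundant of the 34, was at 11.4, 11.1, 12.4 and 19.9 TPM and 10.1, 2.65, 6.80 and 5.05 TPM, and Gjc3 at 61.1, 59.8, 63.3 and 101 TPM and 49.9, 23.3, 40.6 and 28.4 TPM. Their differences were -1.11 ± 0.35 and -1.01 ± 0.25.

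The 4 lipid enzymes fell as well. Ugt8a, which makes galactosylceramide, stood at 145, 162, 179 and 288 TPM in hippocampus controls and 141, 35.9, 111 and 69.3 TPM in amygdala controls (-1.23 ± 0.37, limma adjusted p = 0.0157). Aspa, the aspartoacylase that releases acetate for lipid synthesis, stood at 24.02, 27.3, 25.97 and 40.1 TPM and 21.8, 8.69, 16.7 and 13 TPM (-0.96 ± 0.29, adjusted p = 0.017). Neither gene's libraries overlapped between the tissues. Fa2h, which hydroxylates the fatty acids of myelin lipids, stood at 55.2, 73.4, 69.3 and 114 TPM and 51.98, 14.9, 42.6 and 28.2 TPM. Gal3st1, which adds the sulfate of sulfatide, stood at 20.2, 21.2, 23 and 29.3 TPM and 21.9, 9.82, 16.5 and 11.5 TPM, and its libraries did overlap, through amygdala control 1. Its difference of -0.66 ± 0.24 was the smallest of the 4.

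Of the 4 transcription factors 2 fell. Olig1, a lineage factor, stood at 142, 163, 159 and 202 TPM in hippocampus controls and 136, 87.5, 121 and 93.8 TPM in amygdala controls (-0.61 ± 0.19, limma adjusted p = 0.0213). Olig2, which specifies the lineage, stood at 39.6, 41.4, 43.6 and 54.5 TPM and 38.3, 25.3, 32.1 and 24.8 TPM (-0.57 ± 0.18, adjusted p = 0.0198). No library of these 2 genes overlapped between tissues. Sox10, needed for terminal differentiation, stood at 50.2, 59.2, 55.1 and 79.1 TPM and 52.6, 31.3, 47.8 and 33.4 TPM (-0.56 ± 0.22, adjusted p = 0.0602). Nkx6-2, a homeodomain factor of mature oligodendrocytes, stood at 13.9, 15.1, 15.2 and 23.01 TPM and 14.5, 4.09, 12.5 and 5.53 TPM (-0.94 ± 0.35, adjusted p = 0.0503). Both missed the threshold, and amygdala control 1 of each was within the hippocampus range.

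Of the metabolic genes 4 of 5 fell. Sirt2, a deacetylase abundant in myelin, stood at 448, 484, 525 and 631 TPM in hippocampus controls and 415, 232, 359 and 249 TPM in amygdala controls (-0.76 ± 0.21, limma adjusted p = 0.00926). Trf, the iron carrier transferrin, stood at 201, 206, 183 and 356 TPM and 180.2, 73.05, 122 and 93.6 TPM (-1.04 ± 0.32). Amygdala control 1 of Trf was just under the lowest hippocampus library. Qdpr, which regenerates tetrahydrobiopterin, was steadier, at 134, 141, 140.2 and 178 TPM and 116, 103, 115 and 109.9 TPM (-0.41 ± 0.10, adjusted p = 0.00318). Ndrg1, a stress-responsive gene, stood at 48.4, 60.7, 55.3 and 62.2 TPM and 46.1, 33.02, 38.5 and 37.8 TPM (-0.54 ± 0.20, adjusted p = 0.0476). Car2, a carbonic anhydrase that is not limited to oligodendrocytes, stood at 169.6, 168, 168 and 207 TPM and 176, 141, 155 and 172 TPM. Its tissues overlapped and it did not pass (-0.14 ± 0.11, adjusted p = 0.374).

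All 4 signalling genes fell. Gpr37, an orphan receptor of maturing oligodendrocytes, had the smallest adjusted p of the 34, with 58.5, 57.8, 64.1 and 92.8 TPM in hippocampus controls and 38.7, 18.2, 34.5 and 26.2 TPM in amygdala controls (-1.22 ± 0.20, limma adjusted p = 0.000188). Lpar1, a receptor for lysophosphatidic acid, stood at 49.9, 59.97, 59.6 and 91.4 TPM and 43.97, 18, 41.6 and 26.9 TPM (-1.02 ± 0.27). The tissues did not overlap in either receptor. Ppp1r14a, an inhibitor of myosin phosphatase, stood at 30.5, 43.4, 37.5 and 58.7 TPM and 30.8, 11.6, 25.1 and 13.1 TPM, with an overlap through amygdala control 1. Evi2a, which lies within the span of Nf1 on the opposite strand, stood at 34.3, 31.1, 36.3 and 46.7 TPM and 30.0, 11.9, 26.7 and 22.5 TPM (-0.74 ± 0.26).

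Of the 5 progenitor and early genes 1 rose and 2 fell. Pdgfra, the receptor for the growth factor that keeps progenitors dividing, stood at 46.7, 45.4, 45.9 and 52.4 TPM in hippocampus controls and 62.2, 56.01, 57.98 and 55.4 TPM in amygdala controls, so that every amygdala library was the higher. It rose by a log2 value of 0.28 ± 0.09 (limma adjusted p = 0.0314), from 47.6 ± 3.25 to 57.9 ± 3.08 TPM (SD, n = 4 each). Cspg4, the NG2 proteoglycan shared with pericytes, stood at 10.9, 12.2, 12.1 and 11.9 TPM and 13.7, 13.7, 12.6 and 12.6 TPM, also without overlap, but did not pass (0.15 ± 0.09, adjusted p = 0.217). Gpr17, a receptor of premyelinating cells, stood at 93.6, 123, 101 and 139 TPM and 111, 94.2, 94.7 and 79.5 TPM with overlap (-0.26 ± 0.18, adjusted p = 0.295). The genes of the later stages fell. Enpp6, a choline phosphodiesterase of newly formed oligodendrocytes, stood at 29.3, 28.7, 32.1 and 53.6 TPM and 30.3, 11.3, 20.1 and 13.4 TPM (-0.95 ± 0.30, adjusted p = 0.0217). Bcas1, a marker of cells that begin to myelinate, stood at 169, 168, 169.7 and 275 TPM and 150.3, 77.3, 113 and 75.2 TPM (-0.93 ± 0.26, adjusted p = 0.00996). Leaving out hippocampus control 4 or amygdala control 2 cut the 29 genes that passed to 18 each, and leaving out amygdala control 2 together with amygdala SMRT-KO 2 cut them to 17.

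Other genes of the same pathway, from lists written from general knowledge, were read in the same fit, in which 32.5% of all genes passed and 13.2% passed as lower. Of 30 other myelin genes 22 fell in amygdala and 1 rose, among them Anln, a septin-binding protein of myelin (-1.61), and Adamts4, a protease of mature oligodendrocytes (-1.35). Of 15 genes of newly formed oligodendrocytes 9 fell. Of 10 other oligodendrocyte transcription factors 4 fell, among them St18 (-2.33 ± 0.14, limma adjusted p = 2.23e-09) and Myrf, the master regulator of myelination (-1.20 ± 0.26). Of 15 other progenitor genes 6 rose and 1 fell. The ones that rose include Pcdh15 (0.84) and Lhfpl3 (0.84). Of 13 sphingolipid enzymes 3 rose and 5 fell, and of 22 sterol synthesis genes 2 fell. Of 14 genes of the node of Ranvier and the paranode, which are largely neuronal, 1 rose and 5 fell. The sterol genes lie below the share of all genes. The 5 of 14 node and paranode genes that fell lie above the 13.2% that passed as lower.

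In amygdala the knockouts were compared with each other and each with the same 4 controls, so the comparisons share libraries. Most of the 34 genes separated NCoR1-KO from SMRT-KO, with controls between and across them. Of the 34, 5 were lower in NCoR1-KO than in SMRT-KO at limma's adjusted p under 0.05 (Car2, Ugt8a, Ermn, Tspan2 and Aspa), where 11.5% of all genes passed and 6.46% passed as lower. A lower value in NCoR1-KO was found for 33 of 34, with a median of -0.83 against -0.00 over all genes. At an unadjusted p under 0.05 there were 29 lower and 1 higher, where 31.1% of all genes passed and 15.9% passed as lower. All 3 NCoR1-KO libraries lay below all 3 SMRT-KO libraries for 31 genes, against 19.6% of all genes. Most of the 34 move together from library to library, so these counts are not independent of each other.

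**Figure D3:**
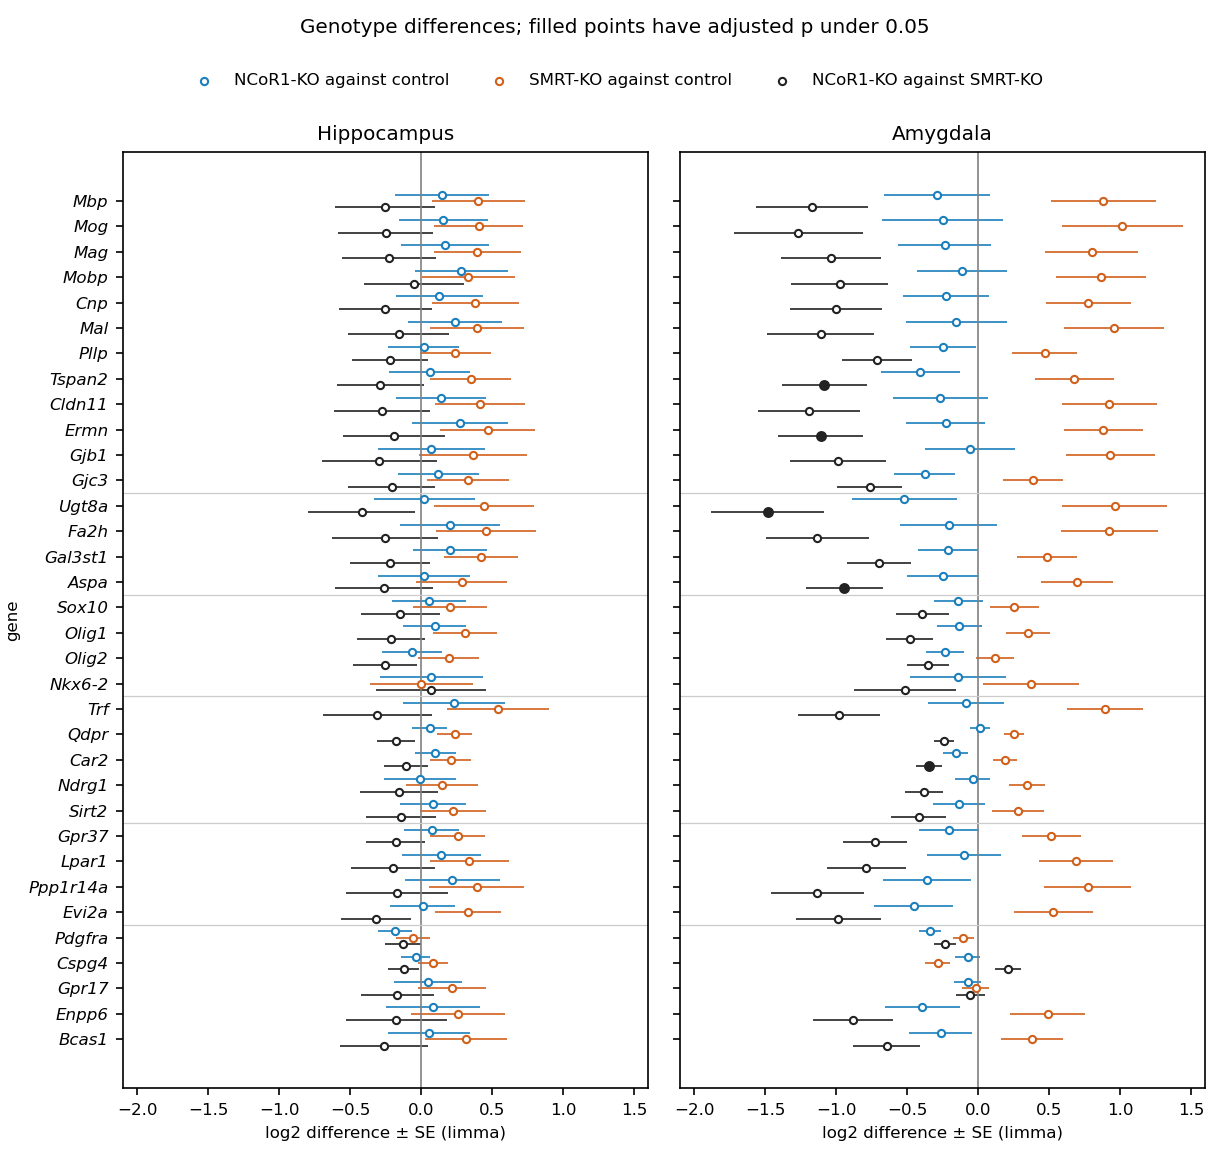
Log2 differences with standard errors for each of the 34 genes in the genotype comparisons of each tissue, grouped by role. In amygdala the SMRT-KO differences from control lie mostly above 0 and the NCoR1-KO differences mostly at or below 0, and filled points, which passed limma's adjusted p of 0.05, are seen for 5 genes in NCoR1-KO against SMRT-KO in amygdala.

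Among the genes of myelin structure Tspan2 and Ermn differed between the knockouts. Tspan2 stood at 122, 99.5 and 99.8 TPM in amygdala NCoR1-KO 1 to 3 and 196, 277 and 216 TPM in SMRT-KO 1 to 3. The SMRT-KO mean was 2.15 times the NCoR1-KO mean, with a log2 difference of -1.08 ± 0.30 (limma adjusted p = 0.0433). Ermn stood at 25.4, 18.6 and 21.9 TPM and 39.3, 66.1 and 43.05 TPM, and its SMRT-KO mean was 2.25 times the other (-1.11 ± 0.30, adjusted p = 0.0386). The groups did not overlap in either gene, and SMRT-KO 2 was the highest. Mbp stood at 2488, 1755 and 1771 TPM and 3678, 5747 and 4189 TPM, a similar difference with a larger error (-1.17 ± 0.40, adjusted p = 0.0765). The controls of Mbp, given with the tissues, run from under the lowest NCoR1-KO library to above the SMRT-KO median. The remaining 9 genes differed by -1.27 (Mog) to -0.72 (Pllp), none past the threshold after adjustment. All 12 had an unadjusted p under 0.05 and no overlap between the knockouts.

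Of the lipid enzymes Ugt8a and Aspa passed. Ugt8a stood at 66.5, 49.97 and 49.8 TPM in amygdala NCoR1-KO and 132, 197 and 144 TPM in SMRT-KO, against 141, 35.9, 111 and 69.3 TPM in controls 1 to 4. Its SMRT-KO mean was 2.85 times the NCoR1-KO mean (158 ± 34.5 against 55.4 ± 9.55 TPM, SD, n = 3 each), the widest difference of the 34 genes (-1.48 ± 0.40, limma adjusted p = 0.0385). Control 1 lay among the SMRT-KO libraries, controls 3 and 4 between the knockouts and control 2 below all NCoR1-KO libraries. Aspa stood at 13.97, 10.7 and 11.2 TPM and 18.9, 31.1 and 22.8 TPM (-0.94 ± 0.27, adjusted p = 0.0485). Fa2h and Gal3st1 had differences of -1.13 ± 0.37 and -0.70 ± 0.22 and did not pass, although their libraries did not overlap either.

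No transcription factor passed. Olig1 stood at 109, 95.3 and 91.96 TPM in amygdala NCoR1-KO and 122, 169 and 128 TPM in SMRT-KO (-0.48 ± 0.17, limma adjusted p = 0.0818). Olig2, Sox10 and Nkx6-2 had differences of -0.35 ± 0.15, -0.39 ± 0.19 and -0.52 ± 0.36. The differences of these factors were smaller than those of the myelin proteins, and all 4 genes were lower in every NCoR1-KO library than in any SMRT-KO library.

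Of the metabolic genes Car2 passed with a small difference and a small spread. It stood at 153, 134 and 144 TPM in amygdala NCoR1-KO and 169, 201 and 180.3 TPM in SMRT-KO, and at 176, 141, 155 and 172 TPM in controls. The log2 difference of -0.35 ± 0.09 had the smallest adjusted p of the 34 (0.0352, limma). Qdpr stood at 115, 108 and 113 TPM and 120.4, 147 and 130.5 TPM (-0.24 ± 0.07, adjusted p = 0.0562). Sirt2 stood at 306, 279 and 249 TPM and 351, 427 and 340.2 TPM (-0.42 ± 0.20, adjusted p = 0.171). In both genes the knockouts did not overlap but the threshold was missed. Trf was at -0.98 ± 0.29 (adjusted p = 0.0524) and Ndrg1 at -0.38 ± 0.13. Of the signalling genes Ppp1r14a came closest, with 18.8, 12.2 and 12.6 TPM and 28.1, 41.96 and 28.8 TPM (-1.13 ± 0.33, adjusted p = 0.0501). Lpar1 stood at 32.4, 26.9 and 26.8 TPM and 43.1, 63.2 and 46.2 TPM (-0.79 ± 0.28, adjusted p = 0.0891). Gpr37 and Evi2a differed by -0.72 ± 0.23 and -0.98 ± 0.30, and none of the 4 passed.

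Of the progenitor and early genes none passed. Pdgfra stood at 42.01, 51.7 and 43.4 TPM in amygdala NCoR1-KO and 54.4, 51.1 and 55.8 TPM in SMRT-KO, with overlap (-0.23 ± 0.08, limma adjusted p = 0.077). Cspg4 stood at 11.5, 14.3 and 11.7 TPM and 11.2, 9.92 and 10.7 TPM, the one gene of the 34 that was higher in NCoR1-KO (0.21 ± 0.09, adjusted p = 0.15). Gpr17 stood at 90.1, 92.4 and 85.98 TPM and 96.03, 99.2 and 84.5 TPM and did not separate the groups (-0.06 ± 0.10). Enpp6 stood at 12.3, 14.98 and 12.1 TPM and 23.4, 29.8 and 22.2 TPM (-0.88 ± 0.28, adjusted p = 0.0654). Bcas1 stood at 88.2, 86.9 and 74.4 TPM and 113, 163 and 119 TPM (-0.64 ± 0.23, adjusted p = 0.0946). These 2 genes of newly formed oligodendrocytes lay lower in every NCoR1-KO library than in any SMRT-KO library, as the myelin genes did, and neither passed.

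The 5 calls depended on single libraries and on the model. None of the 34 genes passed without NCoR1-KO 1, NCoR1-KO 3, SMRT-KO 2 or SMRT-KO 3, and 1 passed without NCoR1-KO 2, while 24 passed without control 2, 21 without control 1 and 7 without SMRT-KO 1. None passed either without the filter on low values, without the variance trend or with the replicate number as a block, and 1 passed in a fit of all 20 libraries. The median difference stayed between -0.91 and -0.70 whichever library was left out.

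**Figure D4:**
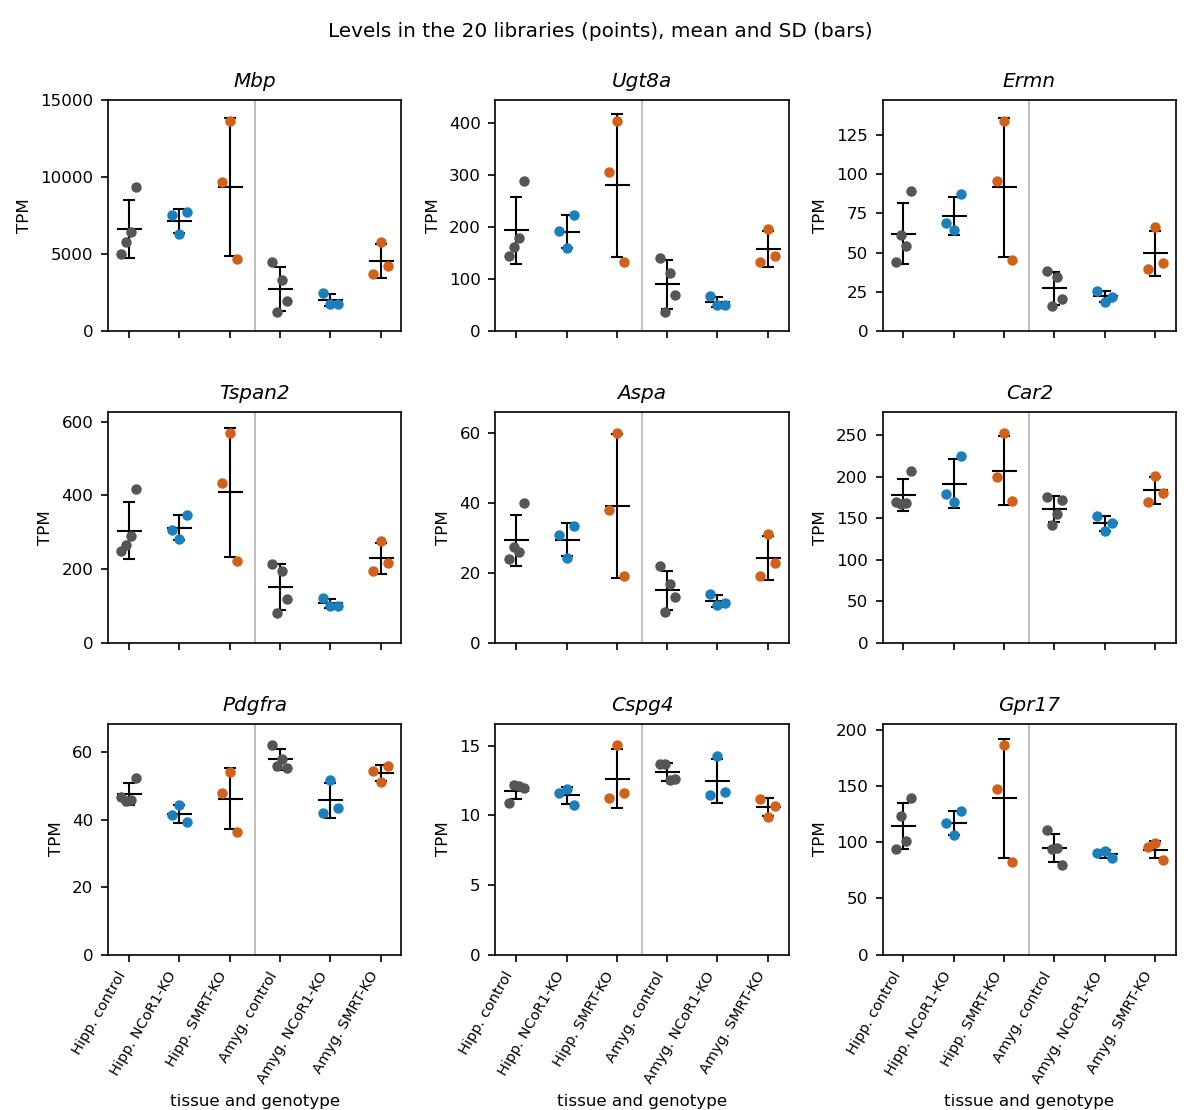
TPM (vertical axes, linear, from 0) of 9 genes in the 20 libraries by tissue and genotype, with points for libraries and bars for the mean and SD of each group. In amygdala the NCoR1-KO libraries of Ugt8a, Ermn, Tspan2 and Aspa all lie below the SMRT-KO libraries, while the controls of Ugt8a, Tspan2 and Aspa run from below the lowest NCoR1-KO library to above the lowest SMRT-KO library and those of Ermn stay below SMRT-KO.

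Against the 4 amygdala controls, none of the 34 genes passed in SMRT-KO by limma's adjusted p, where 0.110% of all genes (16) did. That 16 was 0 without SMRT-KO 3, 697 without SMRT-KO 1 and 309 in a fit of all 20 libraries. At an unadjusted p under 0.05, 23 did, 22 of them higher and 1 lower, against 22.0% of all genes and 8.42% in the higher direction. The level was higher in SMRT-KO for 31 of 34, with a median of 0.52 against -0.03 over all genes. Among the genes of myelin structure the differences from control ran from 0.39 (Gjc3) to 1.02 (Mog), and for Mbp the value was 0.88 ± 0.37 (adjusted p = 0.2). Ermn was the one of these whose SMRT-KO libraries all lay above the controls (0.88 ± 0.28, adjusted p = 0.111). Trf had 0.89 ± 0.27 (adjusted p = 0.102), with SMRT-KO at 160.2, 261 and 210.4 TPM. Qdpr had 0.25 ± 0.07 (adjusted p = 0.0824), its SMRT-KO libraries all above the controls, and it passed when SMRT-KO 1 was left out (adjusted p = 0.0326, with 0.0326 to 0.436 over all alternatives). Cspg4 went the other way, with every SMRT-KO library below every control (-0.28 ± 0.09, adjusted p = 0.103). What share of all genes separated from the controls in this comparison is not given here, so the separations are only descriptions. Pdgfra (-0.10 ± 0.07) and Gpr17 (-0.02 ± 0.10) overlapped with the controls. Without control 2 and SMRT-KO 2, the lowest and highest libraries for most genes, the median was 0.23.

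Against the same controls, none of the 34 passed in NCoR1-KO, where 0.411% of all genes (60) did, and 1 had an unadjusted p under 0.05, against 13.1% of all genes. The level was lower in NCoR1-KO for 33 of 34, with a median of -0.22 against -0.03 over all genes. That 1 gene was Pdgfra, at 42.01, 51.7 and 43.4 TPM against 62.2, 56.01, 57.98 and 55.4 TPM in controls. All 3 knockout libraries lay below all 4 controls, with a difference of -0.34 ± 0.07 (limma adjusted p = 0.0883). Ugt8a had -0.52 ± 0.37 (adjusted p = 0.581), Tspan2 -0.41 ± 0.28 and Enpp6 -0.39 ± 0.26, each with libraries that overlapped the controls. Mbp had -0.29 ± 0.37. For 29 of the 34 the controls spread from below the lowest to above the highest NCoR1-KO library, and the median moved between -0.42 without control 2 and -0.02 without control 1.

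In hippocampus none of the 34 genes passed in any comparison of genotypes, and no gene of any kind did (0% in each of the 3 comparisons, limma). At an unadjusted p under 0.05 the 34 gave 0 in NCoR1-KO against control, 0 in SMRT-KO against control and 0 in NCoR1-KO against SMRT-KO, where 4.54%, 5.61% and 6.59% of all genes did. In NCoR1-KO the level was higher than in controls for 30 of 34, with a median of 0.08, which was 0.01 without control 1 and 0.23 without control 4. In SMRT-KO it was higher for 33 of 34, with a median of 0.33. Both use the same controls. Set against each other, NCoR1-KO was lower for 33 of 34, with a median of -0.21. The last median was 0.08 without SMRT-KO 2 and -0.59 without SMRT-KO 3, and that of SMRT-KO against control was 0.04 and 0.70.

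Single genes show how far the libraries of a group lay from each other. Mbp stood at 7519.9, 6278 and 7702 TPM in hippocampus NCoR1-KO 1 to 3 and at 9705, 13642 and 4677 TPM in SMRT-KO 1 to 3. The SMRT-KO group holds both the highest library of the tissue and its lowest, and the NCoR1-KO libraries lie inside the control range. The differences from control were 0.15 ± 0.33 and 0.40 ± 0.33. Ugt8a stood at 191, 159 and 224 TPM and 305, 404 and 132 TPM (0.02 ± 0.35 and 0.44 ± 0.35). Ermn stood at 68.8, 64.1 and 87.4 TPM and 95.5, 134 and 45.04 TPM (0.27 ± 0.34 and 0.47 ± 0.34). SMRT-KO 2 was the highest library of the tissue in both, as in Mbp. Olig1 stood at 182, 163 and 185 TPM and 216, 297 and 134 TPM (0.09 ± 0.22 and 0.31 ± 0.22). Bcas1 stood at 205, 174 and 217 TPM and 256, 369 and 142 TPM (0.05 ± 0.29 and 0.32 ± 0.29). SMRT-KO 3 was lower than every control in these 2 genes and SMRT-KO 2 higher than every control. Pdgfra stood at 41.4, 44.5 and 39.2 TPM and 47.97, 54.1 and 36.4 TPM (-0.19 ± 0.12 and -0.06 ± 0.12). Of the 34 genes, Pdgfra alone had NCoR1-KO libraries that did not overlap the controls, all 3 below. This held in amygdala too, and in neither tissue did it pass. The share of all genes separated in this way is not given here, so the separation is only a description. Cspg4 stood at 11.6, 11.9 and 10.8 TPM and 11.2, 15.1 and 11.6 TPM (-0.04 ± 0.10 and 0.08 ± 0.10), with SMRT-KO 2 alone above the rest.

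The remaining 8 genes for which every library is given also overlapped with the controls in hippocampus. Tspan2 stood at 307, 281 and 348 TPM in NCoR1-KO and 434, 570.1 and 222 TPM in SMRT-KO. Aspa stood at 30.7, 24.2 and 33.4 TPM and 38.03, 60.03 and 18.98 TPM, and Sirt2 at 554, 531 and 559 TPM and 673, 868 and 379 TPM. In all 3 the SMRT-KO libraries bracket every other library of the tissue. Qdpr stood at 149, 148 and 165 TPM and 174, 205 and 147 TPM, and Car2 at 179, 169.9 and 225 TPM and 199, 253 and 170.2 TPM. These 2 metabolic genes vary less, and SMRT-KO 3 is not their lowest library. Lpar1 stood at 72.3, 63.7 and 75.1 TPM and 86.7, 122 and 49.3 TPM. Of the early genes, Gpr17 stood at 117, 106 and 128 TPM and 147, 187 and 82.7 TPM and Enpp6 at 35.6, 33.05 and 42.5 TPM and 47.4, 67.97 and 22.4 TPM. SMRT-KO 2 was again the highest and SMRT-KO 3 the lowest of the tissue for these 3 genes.

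Whether a knockout's difference from control changed between the tissues was tested in a joint fit. For NCoR1-KO none of the 34 passed (0% of all genes) and 0 had an unadjusted p under 0.05 (3.67% of all genes, limma). The amygdala difference was the lower for all 34, with a median of -0.32 that moved between -0.12 without amygdala control 1 and -0.51 without hippocampus control 4, and for Ugt8a the value was -0.54 ± 0.56. For SMRT-KO none passed either (0% of all genes) and 1 had an unadjusted p under 0.05, Cspg4 (-0.37 ± 0.13), against 8.85% of all genes. The amygdala difference was the higher for 29 of 34, with a median of 0.29. That median was -0.07 without hippocampus SMRT-KO 3 and -0.06 without amygdala control 2 and amygdala SMRT-KO 2. The standard errors, 0.54 for Mbp in SMRT-KO, leave room for differences in either direction.

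Markers of other cells and of neighbouring regions were summarised per library as the median log2 deviation of a list's genes from their mean over the tissue. By that score the 34 genes stood at 0.49, -0.78, 0.19 and -0.34 in amygdala controls 1 to 4, at -0.12, -0.40 and -0.41 in NCoR1-KO 1 to 3 and at 0.29, 0.77 and 0.38 in SMRT-KO 1 to 3. The 14 striatum genes, of the region that borders the amygdala, stood at -0.43, -0.96, 0.57 and -0.25, 0.19, -0.63 and -0.47 and 0.44, 0.45 and 1.12 in the same order. Their summed level ran from 487 to 1440.0 TPM over the controls, from 691 to 1189 TPM over the NCoR1-KO libraries and from 1290.0 to 2024 TPM over the SMRT-KO libraries. All 14 were lower in NCoR1-KO than in SMRT-KO, 3 of them past limma's adjusted p, with a median of -1.10. Between these knockouts 11.5% of all genes passed, 6.46% as lower. All 14 striatum genes were higher in SMRT-KO than in control, none past the adjusted p, with 12 at an unadjusted p under 0.05. In that comparison 22.0% of all genes had an unadjusted p under 0.05, 8.42% as higher. The genes of the amygdala nuclei stood at 0.06, 0.07, 0.19 and -0.11, 0.10, 0.42 and 0.11 and -0.04, -0.44 and -0.34. The microglia list had all 14 genes lower in NCoR1-KO than in SMRT-KO, 9 of them past the adjusted p, with a median of -0.35. All 14 endothelial and mural genes were lower as well, 2 past it, and of 12 astrocyte genes 9 were lower, 2 past it. The 2 calls in each of the endothelial and astrocyte lists stand against the 6.46% of all genes that passed as lower. Of 7 genes of Schwann cells, which make the myelin of nerves, 4 were expressed enough to be tested and 0 passed (limma, 0 at an unadjusted p under 0.05). Genes of the cortex layers scored 0.139 to 0.312 in SMRT-KO, at most 0.102 in controls and at most 0.024 in NCoR1-KO, and genes of the CA fields 0.147 to 0.243, at most 0.117 and at most 0.019. These 2 lists set every SMRT-KO library above all other amygdala libraries, and the striatum list did not. The node and paranode list did so too, at 0.053 to 0.085 in SMRT-KO, at most 0.009 in controls and at most -0.014 in NCoR1-KO. The part of tissue makeup in the differences of the 34 genes was not tested.

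In hippocampus the score of the 34 genes was -0.34, -0.23, -0.21 and 0.36 in controls 1 to 4, -0.02, -0.16 and 0.10 in NCoR1-KO and 0.31, 0.82 and -0.55 in SMRT-KO. The thalamus list, of a region under the hippocampus, stood at -0.21, 2.44 and -0.60 in SMRT-KO 1 to 3 and at -0.24, -0.21, -0.20 and -0.04 in controls. The ependyma list, of the cells lining the ventricle, stood at -0.04, 0.84 and -1.60 in SMRT-KO. It ran from -0.56 to 0.70 in controls and from -0.40 to 0.53 in NCoR1-KO. The choroid plexus list ran from -1.86 to 0.92 in controls, from -1.72 to 2.82 in NCoR1-KO and from -1.66 to 1.89 in SMRT-KO. Library SMRT-KO 2, the highest for all 34 genes, was also the highest of the 3 in thalamus and ependyma genes, and SMRT-KO 3 the lowest. Their part in the 34 genes' levels was not tested. The summed level of the thalamus genes ran from 259 to 433 TPM over the controls, from 235 to 251 TPM over the NCoR1-KO libraries and from 214 to 1268 TPM over the SMRT-KO libraries. Among the hippocampus controls, control 2 had the highest summed level of striatum genes (565 TPM against 198 to 228 TPM in the other 3) and of genes of the amygdala nuclei (453 TPM against 264 to 339.5 TPM). As a check of the labels, 8 of 11 dentate gyrus genes and 8 of 12 genes of the CA fields were lower in amygdala than in hippocampus controls, and 7 of 11 genes of the amygdala nuclei were higher. Between the control tissues, 10 of 14 microglia genes and 9 of 14 striatum genes were higher in amygdala by limma's adjusted p. In that fit 32.5% of all genes passed and 13.2% passed as lower.

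**Figure D5:**
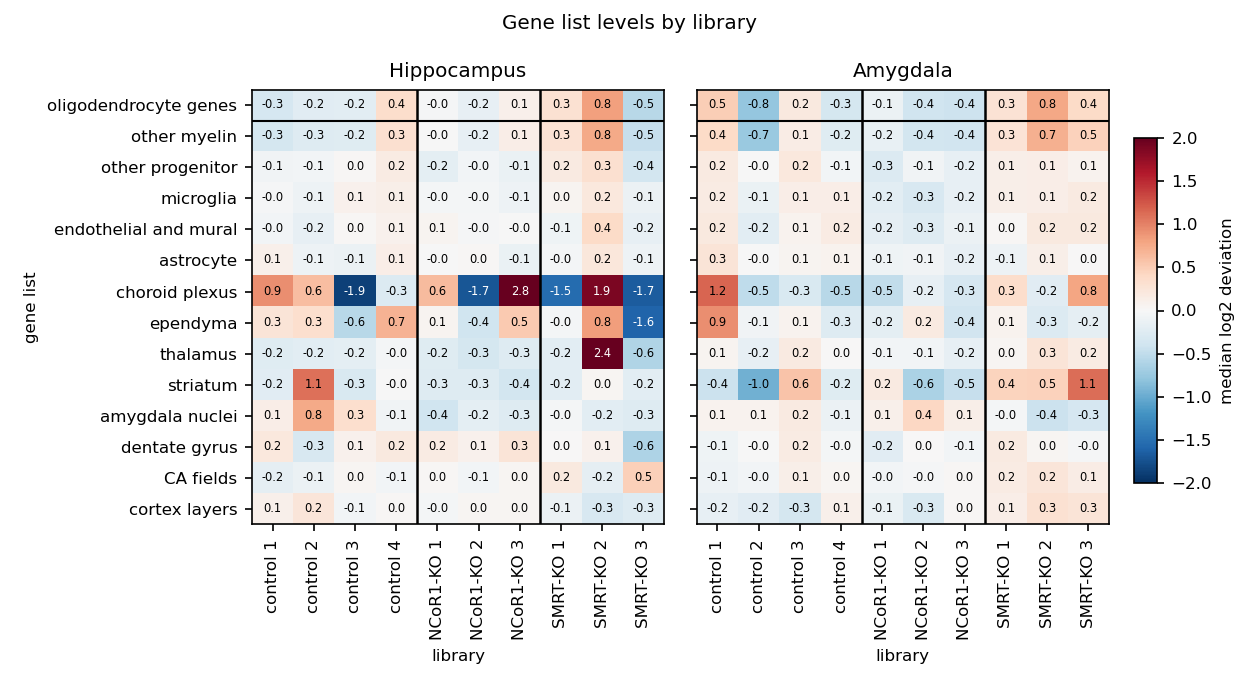
Score of the 34 genes and of marker lists of other cells and regions in each library, as the median log2 deviation from the tissue mean, by genotype and tissue. Amygdala SMRT-KO libraries lie above NCoR1-KO libraries for the 34 genes and for striatum genes, and hippocampus SMRT-KO 2 and 3 lie at opposite ends for the 34 genes and for thalamus genes.

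The other lists of the pathway are to be read against the 11.5% of all genes that passed between the amygdala knockouts, 6.46% as lower. Of 30 other myelin genes 8 were lower in NCoR1-KO than in SMRT-KO by limma's adjusted p, with a median of -0.80. They include Hapln2, a link protein of the node (-1.39), Anln (-1.17) and Cryab, a small heat-shock protein (-0.67). Of 15 other progenitor genes 4 were lower, Tnr (-0.73), Vcan (-0.59), Pcdh15 (-0.39) and Ptprz1 (-0.35), of which Tnr and Vcan encode matrix proteins. Of 13 sphingolipid enzymes 2 were lower, Elovl7 (-0.90) and Sptlc2, a subunit of the enzyme that starts sphingolipid synthesis (-0.35). Near the share of all genes were the lists of newly formed oligodendrocytes and of other transcription factors. Of 15 genes of newly formed oligodendrocytes 1 was lower, Rras2 (-0.27), and of 10 other transcription factors 1, Nfe2l3 (-0.73). Of 22 sterol genes 1 was lower, Hsd17b7 (-0.43). The node and paranode list lay above the share of all genes, with 5 of 14 genes lower and 1 higher. Among the lower were the axonal potassium channels Kcnq3 (-1.58), Kcna1 (-0.69) and Kcna2 (-0.53). Against control, Ptprz1 (-0.47 ± 0.07, adjusted p = 0.0291), Sptlc2 (-0.39 ± 0.06, adjusted p = 0.0291) and Kcnq3 (-0.98 ± 0.13, adjusted p = 0.0203) fell in amygdala NCoR1-KO. No gene at all passed in that comparison without NCoR1-KO 2, so these 3 calls rest on that library, and 2 genes of all passed in a fit of all 20 libraries. Of the other myelin genes 28 of 30 were higher in amygdala SMRT-KO than in control, with 0 past the adjusted p (limma) and 17 at an unadjusted p under 0.05. In that comparison 0.110% of all genes passed and 22.0% had an unadjusted p under 0.05, 8.42% as higher.

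The genes outside the 34 whose levels were most like theirs were sought over 10592 genes and 20 libraries, by the correlation of each gene's group-centred log2 values with the median of the 34. The 8 nearest were Litaf (Pearson 0.992), Myrf (0.989), Cers2 (0.987), Gltp (0.984), Plekhh1 (0.984), Plekhg3 (0.982), Opalin (0.981) and Slc44a1 (0.980), with Spearman values of 0.932 to 0.971. The median over all genes compared was 0.06. Without hippocampus SMRT-KO 2 and SMRT-KO 3 the 8 stood at 0.967 to 0.987. All of these share the 20 libraries and their scaling, and the values are descriptions.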

How the data were processed

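Gene-level TPM values of 10 hippocampus and 10 amygdala libraries were used as deposited by the authors, 1 table per tissue. Per the labels' protocols the libraries were made with a stranded mRNA kit. Per the submitters' processing notes the build was mm10 and the tools included RSEM 1.3.3, STAR 2.5.3a, fastp 0.21.0 and bcl2fastq, with no role given. The annotation and the strand setting of the counting are not given in the sources used here. The 20 columns each name 1 labelled library, with 0 columns left over. TPM keeps no depth, so no counting error can be attached.

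The fits used limma 3.58.1 (R 4.3.3) on log2(TPM + 1), a scale that understates the change of low genes. A gene was tested in a tissue at 1 TPM or more in at least 3 of 10 libraries, which all 34 genes reached in both tissues. The 3 genotypes of a tissue were fitted together with a variance trend. The tissues and the differences between tissues were fitted over all 20 libraries. P-values were adjusted by Benjamini-Hochberg over all genes tested. The fit was tested on simulated data.

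Every library is given for 15 genes chosen by role, and control libraries for all 34. Other lists were written from general knowledge. The 34 genes and the lists were chosen with earlier results of these data known. Alternatives were another pseudocount, other filters, no variance trend, quantile normalization, rescaling without Rn45s, a replicate block, a joint fit and leaving out libraries. Some results are not reported here.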

Additional observations from a re-analysis of the deposited data

Results flagged for a closer look

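In groups of 4 libraries, a value was singled out when the gap between the highest or lowest library and the nearest other took up more of the group's range than Dixon's 95% limit allows. Chance marks about 1 in 20 groups, and here 10 of 68 were marked, all of them hippocampus controls. In 9 genes it was control 4 that lay high. Mog stood at 330.5 TPM there against 191 to 212 TPM in the other 3 controls, Gjb1 at 19.88 against 11.1 to 12.4 TPM and Gjc3 at 100.74 against 59.8 to 63.3 TPM. Nkx6-2 stood at 23.01 against 13.9 to 15.2 TPM, Trf at 355.75 against 183 to 206 TPM and Qdpr at 178.24 against 134 to 141 TPM. Car2 stood at 207.06 against 168 to 169.6 TPM, Enpp6 at 53.56 against 28.7 to 32.1 TPM and Bcas1 at 275.11 against 168 to 169.7 TPM. The last was Cspg4, which was low in control 1, at 10.92 TPM against 11.95 to 12.16 TPM in the others. The 9 high values come from the same library and are not independent of each other.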

How the results depend on the processing

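The sign of the median over the 34 genes held under all alternatives run, except in hippocampus NCoR1-KO against SMRT-KO and in the SMRT-KO difference between tissues. In amygdala NCoR1-KO against SMRT-KO 5 genes passed. The count was 0 without a filter, 0 without the variance trend, 0 with the replicate number as a block, 10 with a mean of at least 5 TPM and 1 in a fit of all 20 libraries. It ran from 0 to 24 when single libraries were left out. In amygdala SMRT-KO against control the count ran from 0 to 1 when single libraries were left out. The 29 genes of the tissue comparison ran from 18 to 31 in the same way, and were 17 without amygdala control 2 and SMRT-KO 2, an alternative chosen after seeing the data. In hippocampus NCoR1-KO against SMRT-KO the median ran from -0.59 to 0.083 with single libraries left out. The median of the SMRT-KO effect in amygdala minus that in hippocampus ran from -0.072 to 0.60, and was -0.056 without amygdala control 2 and SMRT-KO 2. The cause of these shifts was not tested. Replicate numbers were not taken as pairs, since not every pair correlated over 0.1: same-numbered libraries deviated together with a correlation from -0.25 to 0.34 in amygdala and from -0.49 to 0.50 in hippocampus, over 0.1 in 2 of 9 pairs each, and from 0.001 to 0.48 between the tissues, over 0.1 in 7 of 10 and positive in all, and the labels do not say whether the tissues share animals. With that block the tissue comparison gave 29 genes, and control 4, which has no partner in the knockouts of its tissue, then adds nothing to a comparison within the tissue. Depth limits are unknown, since TPM keeps none.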
